A study of Mus musculus with 2 samples.

Results

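Keratin genes were followed in mouse embryonic stem cells whose topoisomerase II was inhibited with ICRF-193. The members are the rows of the deposited table whose symbol is Krt, a number and at most 1 letter; the keratin-associated Krtap genes were left out. The rule found 51 of the 21937 genes of the table, and 47 of the 51 had reads, against 18759 of all genes. RNA was sequenced from wild-type cells of 129Sv-C57Bl/6 strain, plated without feeder cells; 1 group received ICRF-193 at 500 nM and the other the solvent DMSO alone, each for 16 h, and both share strain, genotype and culture. ICRF-193 blocks the catalytic cycle of topoisomerase II, an enzyme that untangles DNA by strand passage. There were 3 libraries in each of the 2 groups, and the table gives only their mean in normalised reads, that is, reads over the size factor of their library. The labels do not say that the replicates came from separate cultures, so a p-value reflects nothing but the spread among these libraries, which may be technical.

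Keratins are the intermediate filament proteins of epithelia. A filament is built from pairs of 1 acidic type I and 1 basic type II chain, so cells express members of both types together. The simple keratins Krt8 and Krt18, with Krt7 and Krt19, are the set of single-layered epithelia and of the earliest epithelium of the embryo, the trophectoderm. Krt5 with Krt14 or Krt15 marks the basal layer of stratified epithelia, and other pairs mark the layers above it, while hair and root sheath keratins build the hair shaft and its surrounding sheaths. Here 4 members were classed as simple, 19 as stratified, 24 as hair and root sheath and 4 as other; 28 were type I and 23 type II.

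Reads per library were worked back from the group means. The letters A, B and C order the libraries of a group from the highest size factor to the lowest and are not replicate numbers. The 6 libraries held 26927757 to 43072820 recovered reads. Libraries A of both groups stood apart: the 8 fibroblast markers summed to 17884, 1807 and 1782 normalised reads in the DMSO libraries and to 20399, 3152 and 2506 in the ICRF-193 libraries, each in the order A, B, C. Most of the sum in libraries A was Col1a1, at 12908 in DMSO-A and 15180 in ICRF-193-A. Col1a2, Col3a1, Pdgfrb and Postn were also highest in library A of both groups. Thy1 was lowest in library A of both groups, Dcn was lowest in DMSO-A only, and Lum was near 0. The difference was not confined to fibroblast markers. Endoderm markers summed to 3886, 1036 and 1585 in DMSO and to 3933, 1642 and 2044 in ICRF-193. Trophectoderm markers also summed highest in library A of both groups, while embryonic stem cell and further epithelial markers summed lowest there. Of the 18 keratins with a mean over both groups of at least 10 normalised reads, 11 were lowest in library A among the DMSO libraries and 14 among the ICRF-193 libraries. Over all 14884 genes at that level the share lowest in library A was 44.9% and 48.0%. Whether the composition of libraries A plays a part in the keratin values was not tested; values are therefore given for each library.

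After ICRF-193, 7 of the 47 keratins with reads rose and 0 fell (authors' DESeq test, adjusted p under 0.05). They were 6 stratified keratins, Krt15, Krt5, Krt13, Krt79, Krt12 and Krt16, and 1 simple keratin, Krt18. The stratified ones started at 3.40 to 22.7 normalised reads in DMSO and were 3.49 to 21.9 times as high in the authors' deposited table, while Krt18 started at 9751 and was 1.71 times as high. The authors' DESeq test called 5.97% of all 18759 genes with reads higher and 1.26% lower. At an unadjusted p under 0.05 it had 12 keratins higher and 0 lower, beside 11.5% of all genes higher and 5.38% lower. Of the 18 keratins with a mean of at least 10 normalised reads, 7 were at least 2 times as high in the authors' deposited table, beside 8.53% of all genes at that level. In limma-voom on the recovered reads, 7 of 18 keratins tested were higher and 0 lower, beside 9.76% and 5.94% of all 14972 genes tested. Both filters take in the ICRF-193 libraries. Krt15, Krt5 and Krt79, at DMSO means of 3.40, 4.65 and 5.52, met them only through ICRF-193. Counts among the 18 therefore lean towards members that were high there. In bulk RNA a change in the number of cells that express a gene and a change in its RNA per cell cannot be told apart.

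**Figure D1:**
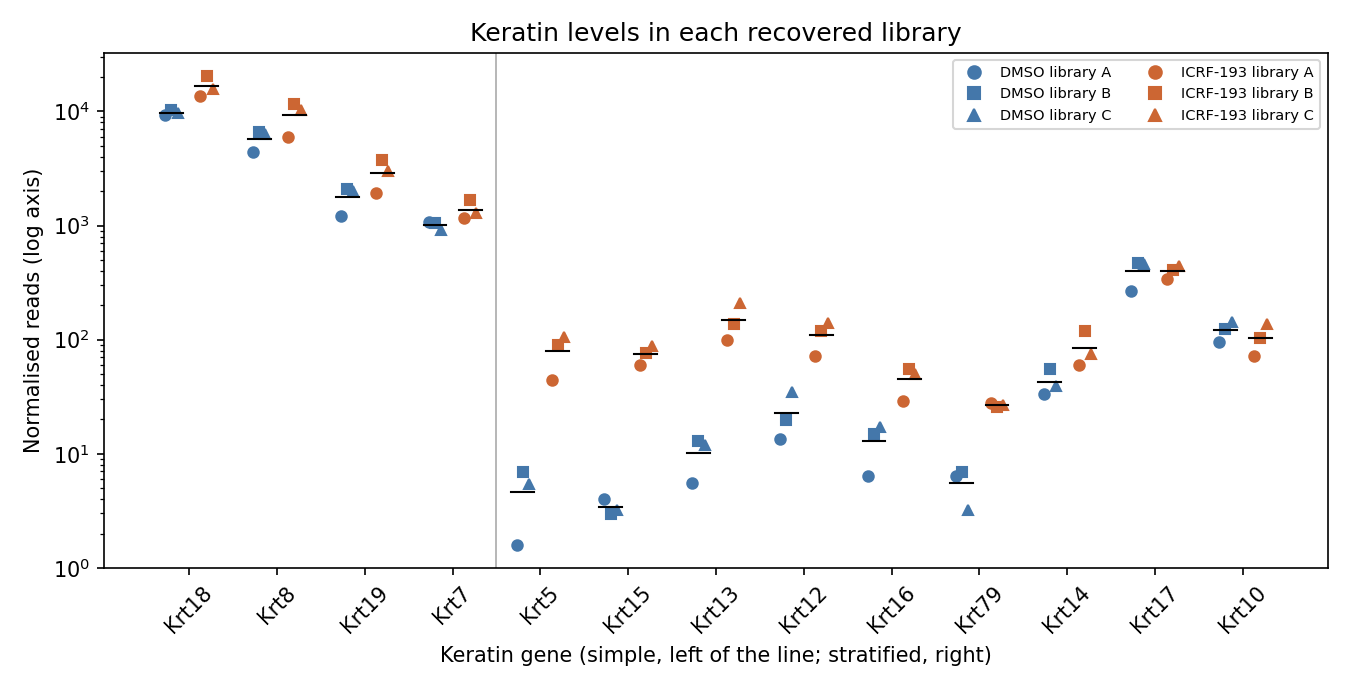
Normalised reads (log axis) of 13 keratins in each recovered library; colours mark the groups, marker shapes the libraries A, B and C, and bars the group means. Simple keratins lie left of the line at 906 normalised reads or more, and Krt5, Krt15 and Krt13 have every ICRF-193 library above every DMSO library with a wide gap, while Krt17 and Krt10 overlap.

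Each of the 4 simple keratins had a higher mean after ICRF-193. Krt18, the type I chain that pairs with Krt8, was at 9287, 10373 and 9593 normalised reads in DMSO and at 13754, 20258 and 15867 in ICRF-193 (libraries A, B and C). All ICRF-193 libraries lay above all DMSO libraries, with ICRF-193-B the highest. Its mean went from 9751 ± 560.0 to 16626 ± 3318 (mean ± SD, n = 3), a log2 fold change of 0.77 in the authors' deposited table (adjusted p = 0.0237, DESeq). Krt8 itself was at 4398, 6546 and 6333 normalised reads in DMSO and at 6009, 11650 and 10337 in ICRF-193, in the order A, B, C. The groups overlapped, because ICRF-193-A lay below DMSO-B and DMSO-C. For Krt8 the authors' deposited table gives a log2 fold change of 0.70 that did not pass (adjusted p = 0.277, DESeq).

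Krt19, a short type I keratin of ducts and of many embryonic epithelia, was at 1224, 2097 and 2008 normalised reads in DMSO and at 1913, 3764 and 3033 in ICRF-193. Again ICRF-193-A lay within the DMSO range, and the log2 fold change of 0.71 in the authors' deposited table did not pass (adjusted p = 0.302, DESeq). Krt7, a type II partner in ducts and glands, was at 1077, 1060 and 906 normalised reads in DMSO and at 1158, 1672 and 1286 in ICRF-193. These groups did not overlap, but ICRF-193-A was only slightly above DMSO-A, and the deposited log2 fold change was 0.44 (authors' deposited table, adjusted p = 0.40, DESeq).

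A limma-voom fit that also held a split term, libraries A against the rest, called all 4 simple keratins higher: adjusted p = 3.94e-05 for Krt18, 2.03e-05 for Krt8, 3.28e-05 for Krt19 and 0.0118 for Krt7. The same fit called 27.1% of all genes higher and 32.6% lower. The split term was included because libraries A had stood apart in earlier work on these same data. Limma-voom without both libraries A also called all 4 higher, and 24.1% of all genes higher and 29.8% lower. Without that term the limma-voom adjusted p was 0.023 for Krt18, 0.164 for Krt8, 0.179 for Krt19 and 0.14 for Krt7. The Krt18 call in limma-voom was lost without DMSO-B (adjusted p = 0.0811), DMSO-C (0.0816), ICRF-193-B (0.0657) or ICRF-193-C (0.086), while Krt8 passed in limma-voom without ICRF-193-A (adjusted p = 0.0343).

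Levels of different genes are compared per kilobase of exon (GENCODE M21). Krt18 was at 6786 normalised reads per kb in DMSO, Krt8 at 2941, Krt19 at 1127 and Krt7 at 248. The ratio of Krt18 to Krt8 per kb was 2.88, 2.16 and 2.06 in the DMSO libraries and 3.12, 2.37 and 2.09 in the ICRF-193 libraries, in the order A, B, C. It thus differed more between library A and the others than between the groups. Summed over all members with reads, type I exceeded type II by a ratio per kb of 2.77 ± 0.33 in DMSO and 2.88 ± 0.50 in ICRF-193 (mean ± SD, n = 3), a difference smaller than the spread between libraries.

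Of the 18 stratified keratins with reads 6 rose, 0 fell and 12 did not pass. The largest fold was that of Krt15, a type I keratin of the basal layer and of the hair follicle bulge. It was at 3.98, 2.98 and 3.24 normalised reads in DMSO (5, 3 and 3 reads) and at 60.2, 75.7 and 87.5 in ICRF-193 (60, 73 and 78 reads). Every ICRF-193 library stood far above every DMSO library, and library A was the lowest only in ICRF-193. The mean went from 3.40 ± 0.520 to 74.5 ± 13.7 (mean ± SD, n = 3), a log2 fold change of 4.45 in the authors' deposited table (adjusted p = 5.39e-15, DESeq).

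Krt5, the type II keratin of the basal layer, was at 1.59, 6.94 and 5.40 normalised reads in DMSO and at 44.2, 90.2 and 105.5 in ICRF-193, in the order A, B, C. The groups were far apart, and library A was the lowest in both. Its log2 fold change in the authors' deposited table was 4.10 (adjusted p = 5.25e-06, DESeq). Krt14, the usual type I partner of Krt5, was at 33.4, 55.6 and 38.9 normalised reads in DMSO and at 60.2, 118 and 75.2 in ICRF-193. Its groups did not overlap either, though the gap between DMSO-B and ICRF-193-A was small. The authors' deposited table gives a log2 fold change of 0.99 for Krt14 that did not pass (adjusted p = 0.172, DESeq); limma-voom gave adjusted p = 0.0996, and 0.00519 with the split term.

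Krt13, the type I keratin of the layers above the basal one in moist stratified epithelia such as the oesophagus, was at 5.57, 12.9 and 11.9 normalised reads in DMSO and at 98.4, 136 and 209 in ICRF-193. All ICRF-193 libraries were above all DMSO libraries, with a log2 fold change of 3.87 in the authors' deposited table (adjusted p = 2.09e-06, DESeq). Its type II partner Krt4 had 6 reads in all DMSO libraries and 33 in all ICRF-193 libraries, at 3.18, 0 and 2.16 against 14.1, 10.4 and 10.1 normalised reads. These groups did not overlap; Krt4 did not pass in the authors' deposited table (log2 fold change 2.69, adjusted p = 0.0652, DESeq).

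Krt12, the type I keratin of the corneal epithelium, was at 13.5, 19.8 and 34.6 normalised reads in DMSO and at 72.3, 118 and 139 in ICRF-193. The lowest ICRF-193 library was above the highest DMSO library, and the log2 fold change was 2.28 in the authors' deposited table (adjusted p = 9.94e-05, DESeq). Krt12 overlaps the gene A830036E02Rik (RefSeq, GRCm38.p6), and whether the kit kept the strand is not given in the sources used here, so its reads cannot be assigned with certainty. Krt79, a type II keratin known from the opening of the hair follicle, was at 6.37, 6.94 and 3.24 normalised reads in DMSO and at 28.1, 25.9 and 26.9 in ICRF-193. The ICRF-193 libraries lay close together, and library A did not stand apart; the log2 fold change was 2.29 in the authors' deposited table (adjusted p = 0.00425, DESeq).

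Krt16, which activated and wounded epidermis induces together with Krt6a, Krt6b and Krt17, was at 6.37, 14.9 and 17.3 normalised reads in DMSO and at 29.1, 55.0 and 50.5 in ICRF-193. The groups did not overlap, with library A the lowest in each. Its log2 fold change was 1.80 in the authors' deposited table (adjusted p = 0.00202, DESeq). The other genes of that set gave no call: Krt17 was at 401 ± 114.7 and 396 ± 54.8 normalised reads (mean ± SD, n = 3; DMSO and ICRF-193), Krt6a had 0 reads in DMSO and 4 in ICRF-193, and Krt6b had none. In the transcripts of GENCODE M21, 47.5% of the 36-base windows of Krt16 also occur in another gene, mostly in Gm11597 and Krt14, so its reads could be split or lost in counting. The same holds for Krt6a (49.7% of windows) and Krt6b (54.9%), which share them mostly with each other and with Gm5478. Their few or absent reads therefore do not show that these genes were silent. That share was 23.9% for Krt14, 10.9% for Krt5, 11.9% for Krt17 and 30.4% for Krt8, which shares them with Krt8-ps; it was 2.6% for Krt15 and 0 for Krt13 and Krt12.

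The pair of the upper epidermis did not pass. Krt10 was at 94.7, 125 and 143.7 normalised reads in DMSO and at 71.3, 103 and 138 in ICRF-193, and its partner Krt1 at a mean of 6.34 and 6.59. Both groups overlapped for both genes, with adjusted p = 0.886 and adjusted p = 1 in the authors' deposited table (DESeq). The remaining stratified members Krt2, Krt9, Krt24, Krt76, Krt77 and Krt78 had means of at most 7.94 normalised reads in either group, and none passed.

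The limma-voom fit called the same 6 stratified keratins higher, with adjusted p = 0.00178 for Krt15, 0.00587 for Krt13, 0.00838 for Krt79, 0.0103 for Krt5, 0.0164 for Krt12 and 0.0395 for Krt16. With the genes tested held fixed, Krt15, Krt5, Krt13 and Krt79 passed in limma-voom whichever single library was left out. Krt12 was lost without DMSO-B (adjusted p = 0.0775, limma-voom), ICRF-193-B (0.0712) or ICRF-193-C (0.0594). Krt16 was lost without any library but ICRF-193-A, with adjusted p = 0.0559 without DMSO-A, 0.106 without DMSO-B, 0.0757 without DMSO-C, 0.133 without ICRF-193-B and 0.123 without ICRF-193-C (limma-voom).

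**Figure D2:**
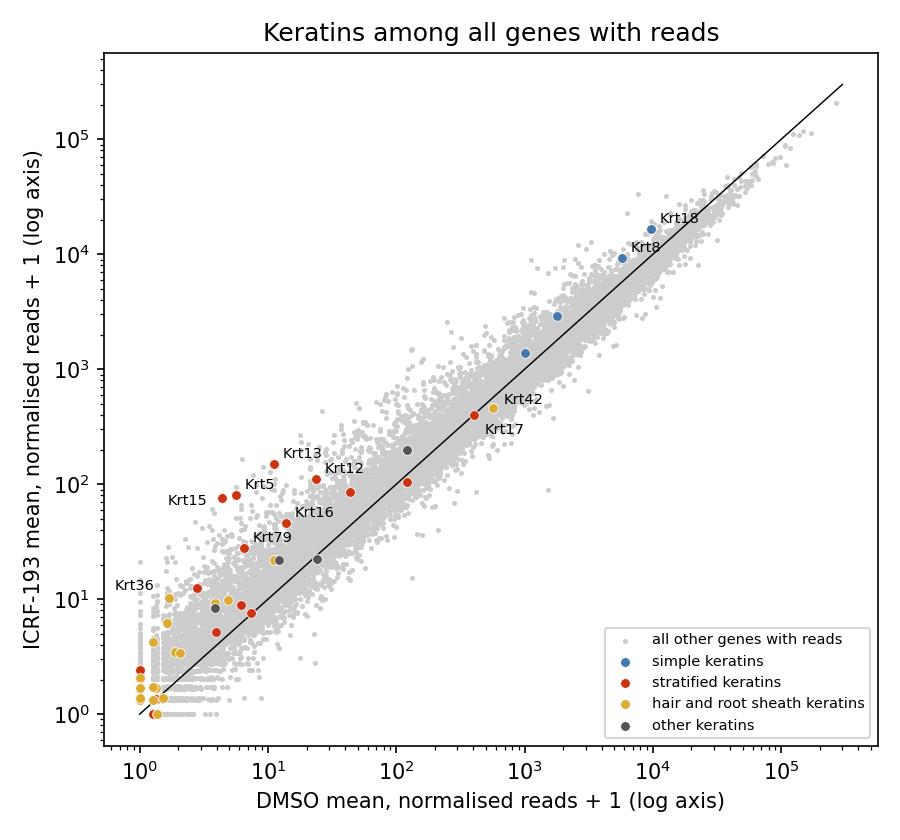
Mean of ICRF-193 against mean of DMSO for all genes with reads (normalised reads + 1, both axes log; the line marks equal values), with keratins coloured by class. Krt15, Krt5 and Krt13 lie at the upper edge of the cloud of genes with 3.40 to 10.1 normalised reads in DMSO, whereas the 4 simple keratins lie at 1014 or more in DMSO and nearer the line.

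Hair and root sheath keratins gave 0 calls among 21 with reads in the authors' DESeq test, with 2 higher and 0 lower at an unadjusted p under 0.05, where 11.5% of all genes were higher. Of the 2 that limma-voom could test it called 0, and 1 higher and 1 lower with the split term. Krt42, a type I keratin, was the only one at a high level. It was at 528, 594 and 588 normalised reads in DMSO and at 509, 385 and 475 in ICRF-193, so that every ICRF-193 library was below every DMSO library. The log2 fold change of -0.32 did not pass in the authors' deposited table (adjusted p = 0.64, DESeq), and limma-voom gave adjusted p = 0.179, and 0.0274 with the split term. Krt28, of the inner root sheath, was at 10.4, 6.94 and 13.0 normalised reads in DMSO and at 19.1, 27.0 and 16.8 in ICRF-193. These groups did not overlap, but Krt28 did not pass in the authors' deposited table (adjusted p = 0.35, DESeq), and passed in limma-voom with the split term (adjusted p = 0.0243).

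Krt36, a type I hair keratin, came nearest to the threshold from this class. It had 0, 1 and 1 reads in the DMSO libraries and 3, 14 and 9 in the ICRF-193 libraries. The ratio of its summed reads, scaled by the summed size factors of each group, was 14.5, with an exact 95% interval of 3.64 to 126 that covers counting error only, and the authors' deposited table gives adjusted p = 0.0536 (DESeq). Krt75, of the companion layer, had 2 DMSO reads and 15 ICRF-193 reads (the same ratio 8.39, exact 95% interval 1.95 to 75.6 for counting error), and Krt33a had 1 and 9 (ratio 10.1, interval 1.39 to 441). All other hair and root sheath members had means of at most 8.85 normalised reads in either group.

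Members outside these classes gave no call. Krt20, a type I keratin of the gut and urinary lining, was at 173, 78.4 and 108 normalised reads in DMSO and at 259, 180.4 and 159 in ICRF-193. It was highest in library A in both groups, unlike most keratins, and the groups overlapped (adjusted p = 0.347 in the authors' deposited table, DESeq). Krt80 had means of 11.1 and 21.1, Krt23 of 2.84 and 7.41, and Krt222, a shortened relative without a full filament domain, of 23.2 and 21.5 normalised reads (DMSO and ICRF-193).

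Many members were at or near the limit of detection. Krt31, Krt40, Krt6b and Krt85 had no reads in any library. Another 10 members had 0 DMSO reads and at most 4 ICRF-193 reads in all, so no fold is given: Krt2, Krt24, Krt25, Krt26, Krt34, Krt35, Krt39, Krt6a, Krt81 and Krt82. The 29 members below a mean of 10 normalised reads had 104 DMSO reads and 250 ICRF-193 reads together. Over all 47 members with reads the median difference in log2(mean + 1) was 0.76, beside 0.01 over all 18704 genes with recovered reads. Every ICRF-193 library was above every DMSO library in 18 of the 47, beside 17.8% of those genes. In the opposite order, every ICRF-193 library below every DMSO library, there was 1 keratin, Krt42, beside 15.4% of all genes.

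On the scale of log2(mean + 1), the median difference between ICRF-193 and DMSO was 0.70 for the 4 simple, 1.17 for the 18 stratified and 0.73 for the 21 hair and root sheath keratins, and 0.01 for all genes with reads. The ranges differed: 0.44 to 0.77 for simple, -0.34 to 4.10 for stratified, and -0.44 to 2.59 for hair and root sheath keratins. The median of stratified and hair keratins together exceeded that of the simple ones by 0.07. This difference depended on the low members, since it was 1.02 among keratins with a mean of at least 10 and -0.55 with a pseudocount of 10 in place of 1. The 1.02 is raised by the filter itself, which Krt15, Krt5 and Krt79 met only through ICRF-193. The classes were not tested against each other as sets.

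Because the simple keratins were so abundant, they made up nearly all keratin RNA in both groups. Per kb and summed over the class, they were at 9748, 12151 and 11405 normalised reads in the DMSO libraries A, B and C and at 14137, 22844 and 18560 in ICRF-193. Their share of the summed keratin level was 93.0% ± 0.27 in DMSO and 94.3% ± 1.1 in ICRF-193 (mean ± SD, n = 3). Stratified keratins held 3.15% ± 0.53 and 3.29% ± 0.50, a difference smaller than the spread between libraries. Their sum per kb was 267, 440 and 436 in DMSO and 489.9, 673 and 754.5 in ICRF-193, and Krt17 alone, at 259 and 256 per kb, took a large part of it. The hair and root sheath sum was 382 ± 22.1 and 333 ± 34.3 (mean ± SD, n = 3), and its share 3.22% ± 0.20 and 1.78% ± 0.57; of the sum, Krt42 held 369.6 and 295.8 per kb.

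**Figure D3:**
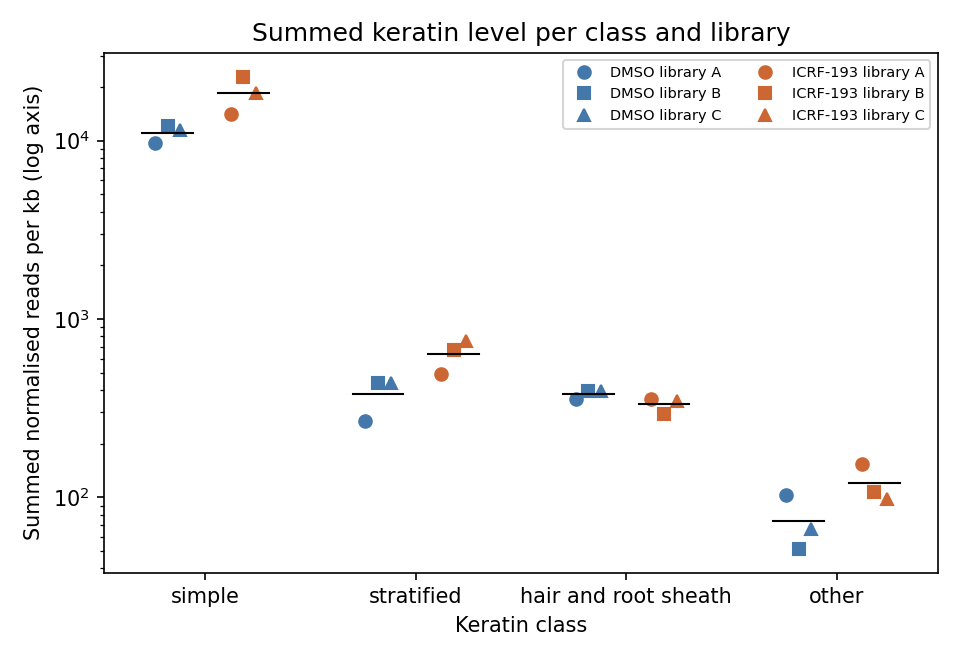
Summed normalised reads per kb of exon (log axis) for each keratin class in each recovered library; colours mark the groups, marker shapes the libraries, and bars the group means. The simple class, at 9748 to 22844, is more than 10 times above every other class in each library, and library A is the lowest of its group for simple and stratified keratins.

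Keratin genes lie in a pair of clusters, type I genes on chromosome 11 and type II genes with Krt18 on chromosome 15 (RefSeq, GRCm38.p6; used for gene order only, since the table was made with mm9). On chromosome 11 the called genes Krt13 and Krt15 are neighbours, followed by Krt19, Krt9, Krt14, Krt16 and Krt17. Along this stretch the log2(mean + 1) differences were 3.74, 4.10, 0.71, 0.55, 0.97, 1.73 and -0.02, so that genes at 4.10 and -0.02 stood 5 places apart. On chromosome 15 the called Krt5 has Krt6a, with 4 reads, on one side and Krt71, at 3.92 and 8.85 normalised reads, on the other. Krt79 follows Krt4, and Krt8 and Krt18 end the cluster side by side. The protein-coding genes of the table that flank the clusters gave no call. Those next to the keratins were Smarce1 (log2 fold change -0.11) and Eif1 (-0.28) on chromosome 11 and Nr4a1 (0.67) and Eif4b (-0.32) on chromosome 15, all from the authors' deposited table. Of the 51 Krtap rows, many of which lie within the chromosome 11 cluster, 10 had reads, at a highest mean of 0.842, and 0 passed.

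The sequences before the start of the called genes are shown because these genes rose from very different levels. RefSeq promoters (GRCm38.p6) matched 34 of the 51 members, Krt13 with 2 starts, and among the called genes Krt5, Krt12, Krt13, Krt18 and Krt79. The 100 bases before the start are printed on the strand of the gene, with capitals for a match to a searched motif: Krt5 at chr15:101712906-101713005 and Krt79 at chr15:101940325-101940424 (both minus strand), Krt12 at chr11:99422260-99422359 and the downstream start of Krt13 at chr11:100120578-100120677 (both minus strand), and Krt18 at chr15:102028116-102028215 (plus strand).
Krt5: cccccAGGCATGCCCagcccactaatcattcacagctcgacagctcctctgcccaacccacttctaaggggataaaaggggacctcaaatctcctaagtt
Krt79: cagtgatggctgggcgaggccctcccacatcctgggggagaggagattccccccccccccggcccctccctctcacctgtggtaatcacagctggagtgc
Krt12: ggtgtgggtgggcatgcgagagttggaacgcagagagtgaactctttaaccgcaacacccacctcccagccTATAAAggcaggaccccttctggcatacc
Krt13: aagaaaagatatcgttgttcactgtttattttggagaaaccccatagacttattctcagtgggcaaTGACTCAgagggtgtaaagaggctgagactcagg
Krt18: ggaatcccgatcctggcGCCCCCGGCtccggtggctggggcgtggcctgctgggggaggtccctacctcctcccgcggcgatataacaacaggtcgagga

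In Krt5 the capitals mark a match to the half-site of the p53 family, in Krt12 a TATA box (TATAAA), in Krt13 an AP-1 motif (TGANTCA) and in Krt18 an AP-2 motif (GCCNNNGGC); Krt79 had none. The 250 bases before each start were searched on both strands, with overlaps between motifs allowed. Among 35 keratin promoters 16 held TATAAA, beside 12.4% of all 32851 promoters, 2 AP-1 (6.75% of all), 4 AP-2 (13.7%) and 3 the p53 family half-site (7.13%). Both promoters with AP-1 belonged to Krt13. At its upstream start, which is not printed, the match lay outside the 100 bases before the start. On the gene's strand 40 to 16 bases before the start, TATAAA stood in 13 of the 35, beside 1.99% of all promoters. These were 9 of 17 hair and root sheath, 3 of 13 stratified, 1 of 2 other and 0 of 3 simple keratin promoters, and Krt12 was the only called gene among them. A match describes the letters of the sequence and not a bound site.

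Other genes of the keratin system were taken from fixed lists. The counts of each list stand beside these shares of all genes. The authors' DESeq test called 5.97% higher and 1.26% lower, and limma-voom 9.76% and 5.94%. With the split term the shares were 27.1% higher and 32.6% lower. Of 15 genes that link keratins to junctions or shape their network, 6 rose, 0 fell and 9 did not pass. The plakin Evpl went from 465, 388 and 399 normalised reads in DMSO to 1477, 1779 and 1660 in ICRF-193, in the order A, B, C, with no overlap (log2 fold change 1.97 in the authors' deposited table, adjusted p = 5.9e-12, DESeq). Its partner periplakin, Ppl, rose 2.81-fold, epiplakin, Eppk1, 2.63-fold, and Fam83h, which recruits a kinase to keratin filaments, 2.15-fold in the authors' deposited table. The list's median on the log2(mean + 1) scale was 0.83, and limma-voom called 7 higher and 0 lower, or 11 and 1 with the split term.

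Of 23 regulators of keratin genes and of epithelial differentiation, 6 rose, 0 fell and 17 did not pass, with a median of 0.56. Limma-voom had 6 of the regulators higher and 1 lower; the split term made this 12 and 2. Zfp750, a regulator of late epidermal differentiation, was at 179, 125 and 159.9 normalised reads in DMSO and at 1116, 1219 and 1133 in ICRF-193. The groups were far apart, and the log2 fold change was 2.90 in the authors' deposited table (adjusted p = 7.06e-23, DESeq). Dlx3 rose 3.57-fold, Hoxc13, a regulator of hair keratins, 3.03-fold, and Grhl3, a factor of the epidermal barrier, 1.91-fold in the authors' deposited table. Trp63, which encodes p63, the main factor of the basal layer and a known activator of Krt5 and Krt14, was near the limit of detection at 2.39, 0.992 and 2.16 normalised reads in DMSO and 3.01, 2.07 and 4.49 in ICRF-193. Its groups overlapped, and it did not pass in the authors' deposited table (adjusted p = 0.965, DESeq).

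Of 16 intermediate filament genes that are not keratins 5 rose, 0 fell and 11 did not pass, with a median of 0.57 over the 15 with recovered reads. Limma-voom called 7 of them higher and 3 lower, the lamins Lmnb1 (adjusted p = 0.00518) and Lmnb2 (0.0068) and the neuronal filament gene Ina (0.0277), and 9 higher and 3 lower with the split term. Synm, the large filament protein of muscle, rose 5.07-fold, Bfsp2, of the lens, 14.7-fold from 1.82 normalised reads, and Des, of muscle, 1.84-fold in the authors' deposited table. Gfap, of astrocytes, rose from a mean of 50.01 to 100.3 normalised reads.

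The labelled cell type was checked against its markers. Over all genes the authors' DESeq test called 5.97% higher and 1.26% lower, and limma-voom 9.76% and 5.94%. The split term raised these shares to 27.1% higher and 32.6% lower, beside which its marker counts below are to be read. All 8 embryonic stem cell markers had reads, and they summed to 119152 to 134605 normalised reads in the DMSO libraries and 80153 to 94140 in the ICRF-193 libraries; 1 of 8, Zfp42, fell and 7 did not pass, while limma-voom called 2 lower, and 7 lower with the split term. Of 12 further epithelial markers 3 rose: Perp 4.62-fold, Itgb4 4.12-fold and Sfn 2.30-fold in the authors' deposited table. In limma-voom Sfn missed the threshold (adjusted p = 0.0549), and with the split term 7 of the 12 were higher and 2 lower. The 2 lower were Epcam, at means of 11026 and 8291, and Esrp1, at 3954 and 3233 normalised reads (DMSO and ICRF-193). Neither passed in the authors' DESeq test. The 8 trophectoderm markers summed to 3058 to 5231 in DMSO and 5686 to 7378 in ICRF-193, with 1 of 8 higher (1600029D21Rik, 2.35-fold in the authors' deposited table) and 7 not passing; limma-voom called 1 higher, and 7 higher with the split term. Endoderm markers summed to 1036 to 3886 and 1642 to 3933, and fibroblast markers to 1782 to 17884 and 2506 to 20399, with 0 of 8 called in each list; in limma-voom 0 of 8 were called, and 1 endoderm and 3 fibroblast markers were higher with the split term. No marker of these lists was at 0 in all libraries, though Lum, Ttr and Afp were at means of at most 4.25 normalised reads. The part of such cells in the keratin values was not tested.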

How the data were processed

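RNA of mouse embryonic stem cells was sequenced in 2 groups of 3 libraries. Per the submitters' processing notes the authors used TopHat, HTSeq and DESeq with build mm9; versions, annotation and strand are not given in the sources used here. Each group column that was deposited is a signal: reads over size factors, averaged; the deposited foldChange is their ratio and log2FoldChange its log2. The p-values, also deposited, come from the authors' test and were adjusted by Benjamini-Hochberg over 18759 genes (recomputed to within 2.59e-15). That test is the main result, since the table gives no counts per replicate.

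Whole reads per library were recovered from the 15-digit means: each is a sum of whole multiples of 3 steps, the worth of 1 read in each library. A single combination fitted for 18205 genes (97.0%), all keratins among them; 499 were taken at a posterior of at least 0.99, and 55 stayed unresolved. Size factors recomputed from the reads differed by at most 0.0487%. The recovery and the fits were also run on simulated data. There libraries A were shifted alike in both groups, as the split term assumes, so that assumption was not tested. The alternative test was limma-voom on these reads (limma 3.58.1 under R 4.3.3), keeping a gene if 3 or more libraries had 10 or more reads, Benjamini-Hochberg adjusted; alternatives are in the closing section.

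The members and lists were chosen with earlier results of these data known. Every called keratin and the 4 simple ones are named with values, other keratins with a mean of at least 10 by their means, and of other lists at most the 4 lowest adjusted p in each direction, and Trp63; keratins outside this rule were named after their values were seen. Older symbols were matched through RefSeq. Of other per-sample columns there were 0.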

Additional observations from a re-analysis of the deposited data

How the results depend on the processing

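The authors' test called 7 keratins higher and 0 lower. Thresholds of 0.01 and 0.10, a filter at a mean of 10, and TMM, upper quartile or total read scaling in limma-voom gave 6 to 9 higher and 0 lower. Limma-voom gave 13 higher and 1 lower with the split term (11 and 0 at an adjusted p under 0.01). Without a filter it gave 11 higher. Without both libraries A it gave 10 higher and 1 lower (12 and 1 with the genes of the full fit). The 1 lower was Krt42. The share of all genes called higher moved too, from 9.76% in limma-voom to 27.1% with the split term and 24.1% without both libraries A. The shares lower were 5.94%, 32.6% and 29.8%. For the other alternatives of this section the share of all genes was not taken, so their keratin counts have nothing to be set against. Leaving out each library in turn gave 1 to 7 higher and 0 lower; it was 4 without DMSO-B, and 1 when library B or C of ICRF-193 was left out. The filter then drops keratins with few DMSO reads, and with the genes of the full fit it gave 4 to 8. Of 156 values of the 7 called keratins under an alternative, 25 missed the threshold and none changed direction. Some of these values are the deposited fold at another threshold or filter, where the direction could not change. Fits whose filter dropped Krt5, Krt15 or Krt79 are not among the 156 and were not counted as missed. The median log2 fold change of the 18 keratins with a mean of at least 10 was 0.85, and 0.61 to 1.03 under the alternatives run. These 18 include Krt15, Krt5 and Krt79, which reached that mean only through ICRF-193. The lowest, 0.61, set ICRF-193-A against DMSO-A, which were matched only by the order of their size factors. The difference of 0.07 between the medians of stratified with hair and of simple keratins became -0.55 with a pseudocount of 10 and 1.02 among keratins with a mean of at least 10, and lay between -0.049 (without DMSO-B) and 0.31 when single libraries were left out; the cause was not tested. The fits without both libraries A, those with the genes of the full fit, the split term at 0.01 and the class difference by library were chosen after seeing the data. The split term itself was planned, but its choice came from earlier work on these data, in which libraries A stood apart. The split term assumes that libraries A differ from the rest alike in both groups. The 29 keratins below a mean of 10 are limited by counting. No paired test was possible because the recovered libraries carry no replicate number.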
